A study of Xenopus tropicalis with 16 samples.

Results

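Liver transcripts of female tropical clawed frogs (Xenopus tropicalis) exposed to a chemical were compared with those of unexposed females. The 12 exposed libraries comprise 4 from frogs exposed to benzo[a]pyrene, 4 to triclosan and 4 to a mixture, and the 4 unexposed libraries are from frogs labelled as not exposed. These are all 16 libraries of the series, so the members were chosen by their labels alone. The combined difference is the mean of the 3 exposed groups, weighted equally, minus the unexposed mean. Each library came from the liver of 1 biological replicate by stranded, poly(A)-selected RNA sequencing. The sources used here state neither strain, age, dose nor duration, nor what the mixture held.

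Benzo[a]pyrene, a polycyclic aromatic hydrocarbon from incomplete combustion, binds the aryl hydrocarbon receptor (AhR), a ligand-activated transcription factor whose best known target in liver is cyp1a1. Triclosan is a chlorinated antibacterial agent, and in mammals it can activate the receptors that induce cytochrome P450 enzymes of other families. The liver clears both kinds of compound, makes most plasma proteins and, in egg-laying females, makes vitellogenin in response to oestrogen. Responses common to unlike chemicals can involve general programmes of hepatocytes, such as intermediary metabolism, the secretory pathway or growth factor signalling.

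The authors' values are FPKM (fragments per kilobase of transcript per unit of sequencing depth). They were divided by 1 factor per library (0.584 to 1.34) so that typical genes had equal levels, and all levels below are rescaled FPKM. The authors' interval widths correspond to a depth of 10.9 to 17.9 M fragments in each library (M, mega). Between 4832 and 6833 of 19921 genes reached an FPKM of 1 in a library, and 6919 genes with a rescaled FPKM of at least 1 in at least 4 libraries were tested. Replicate 4 of the mixture and replicate 4 of benzo[a]pyrene stood apart, with median rank correlations to the other libraries of 0.825 and 0.828 against up to 0.89. Shares of summed FPKM were taken over the genes estimated in every library, which leaves out 10 genes, among them the mitochondrial COX1 and the globin hba1. Ribosomal RNA took 11.45% in the former and 3.606% in the latter, and mitochondrial genes took 8.156% to 31.92% over all libraries. The mean mitochondrial share was 4.02 percentage points higher in exposed than in unexposed libraries (exact permutation p = 0.333, two-sided, where 0.000549 is the smallest p the design allows). The differences in the shares of ribosomal protein genes, globins and ribosomal RNA were -4.23, 0.551 and 1.01 percentage points (exact permutation p = 0.211, 0.177 and 0.519), and adjusted over the 4 shares p was 0.422 to 0.519. The globin difference was -2.51 with the 10 genes kept, and the ribosomal RNA difference was 0.205 without replicate 4 of the mixture. With these genes kept, a failed estimate adds nothing to its library's sum. The -2.51 therefore depends on which libraries lack an estimate and does not show a lower globin share. Of the hepatocyte transcripts, apoa1, the main protein of high-density lipoprotein, stood at 146 to 666 in every library.

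No gene passed the test of the combined difference. Of the 6919 genes, 0 (0%) had an adjusted p below 0.05 in limma with Benjamini-Hochberg adjustment, and the smallest adjusted p was 0.57. At an unadjusted p below 0.05 there were 528 genes where 346 would be expected if no gene differed, namely 271 higher (3.92%) and 257 lower (3.71%) in exposed livers. This count was 290 without unexposed replicate 3 and 315 with values as deposited. The filter was applied anew in these settings, so 346 is not their own expectation. Genes also vary together within a library, so none of these counts can be weighed as independent tests. Log2 differences of rescaled FPKM + 1 had a median of -0.00134 and a median standard error (SE) of 0.198. The genes were split evenly, with 49.7% higher and 50.3% lower. Against the same unexposed libraries, 2 genes passed for benzo[a]pyrene (0.0289%), 0 for triclosan (0%) and 0 for the mixture (0%). At an unadjusted p below 0.05 these 3 comparisons gave 1005, 302 and 454 genes. The p-values measure differences against the spread between biological replicates, and in bulk tissue fewer cells of a type cannot be told apart from less RNA per cell.

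**Figure D1:**
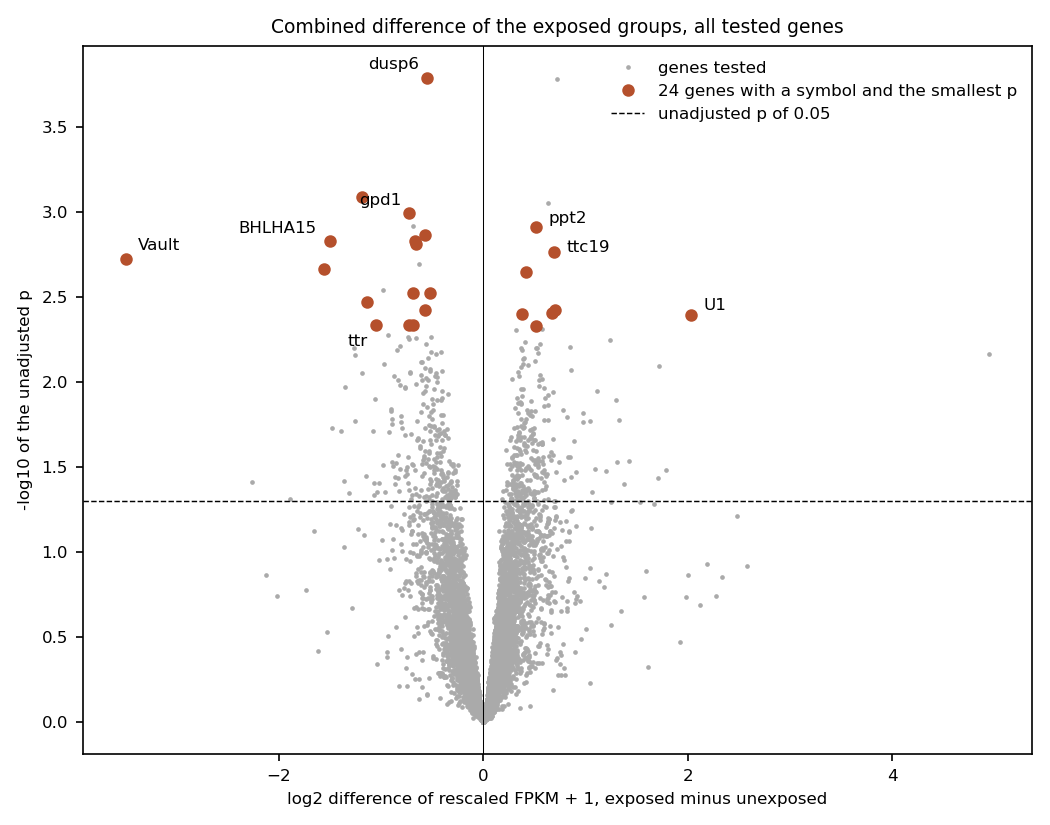
Each point is 1 of 6919 tested genes, with the log2 difference of rescaled FPKM + 1 (mean of the 3 exposed groups minus unexposed) on the x axis and -log10 of the unadjusted limma p on the y axis. The 24 genes with a symbol and the smallest p are drawn larger, 16 to the left of 0 and 8 to the right, and none passed after adjustment.

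The 24 genes with a symbol and the smallest p are described as measured levels, since none of them passed. Their adjusted p ran from 0.57 to 0.631. Of these, 16 had lower and 8 had higher levels in exposed livers, and in 17 of them at least 9 of the 12 exposed libraries lay outside the range of the 4 unexposed ones. Each of the 24 had differences of 1 sign in the 3 exposures, which share the unexposed libraries. Picking genes by the smallest p of the combined difference favours both of these counts. Neither was taken over all tested genes, so they describe the 24 and are no separate evidence. Over all tested genes, the 12 exposed libraries lay above all 4 unexposed ones in 9 genes (0.13%) and below all 4 in 5 genes (0.0723%). Some of the 9 met the filter on low levels through exposed libraries only, as described below.

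**Figure D2:**
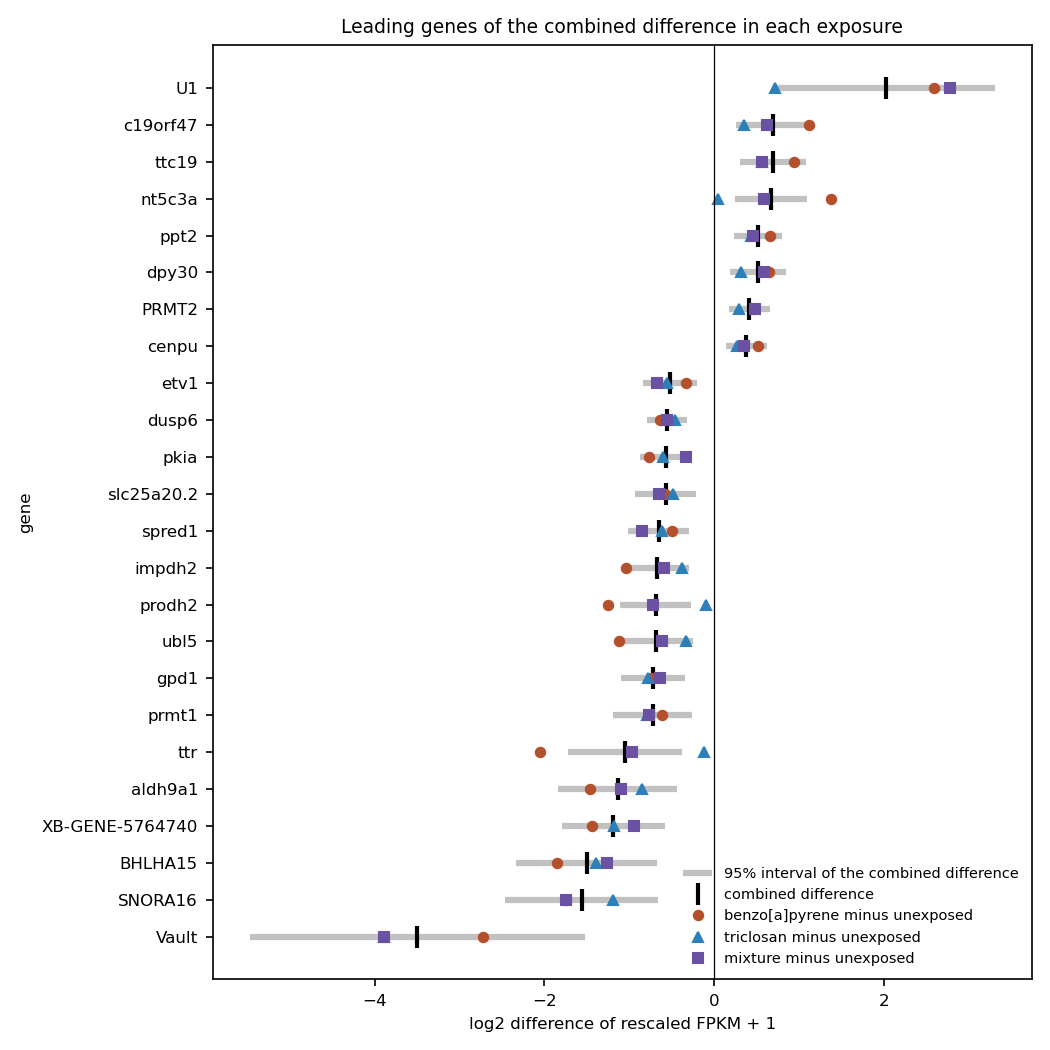
Log2 differences of rescaled FPKM + 1 against unexposed liver (x axis) for the 24 genes with a symbol and the smallest p (y axis). Coloured points give benzo[a]pyrene, triclosan and mixture, black ticks the combined difference and grey bars its 95% confidence interval. The points of dusp6, gpd1 and spred1 lie close together, whereas ttr and nt5c3a are spread widely.

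Feedback genes of the ERK pathway were among the genes with the most separated levels. ERK kinases relay growth factor signals and induce their own inhibitors, so transcripts of these inhibitors are commonly read as a record of pathway output. The ERK phosphatase dusp6 (ENSXETG00000021871, scaffold GL172895.1, 934094 to 939036) stood at 2.18, 2.18, 2.54 and 2.29 in unexposed livers. In exposed livers its lowest, median and highest levels were 0.8, 1.26 and 1.97. All 12 exposed libraries were below all 4 unexposed ones. The combined log2 difference was -0.55 (SE 0.11, 95% interval -0.79 to -0.31, limma adjusted p = 0.57), with -0.64 for benzo[a]pyrene, -0.46 for triclosan and -0.55 for the mixture.

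The Ras-Raf inhibitor spred1 (ENSXETG00000018057, scaffold GL172673.1, 3442830 to 3492445) stood at 3.22, 3.94, 4.01 and 3.83 in unexposed livers. It ran from 0.968 through a median of 2.23 to 2.97 in exposed livers, again with no overlap. Its combined log2 difference was -0.66 (SE 0.17, adjusted p = 0.631). The ETS transcription factor etv1 (ENSXETG00000005062), a known ERK target, stood at 2.14, 2.36, 1.52 and 1.43 in unexposed livers and at 0.394 to 1.69 in exposed livers, with a median of 1.05. In 11 of 12 exposed libraries etv1 was below the lowest unexposed level (log2 difference -0.52, SE 0.15, adjusted p = 0.631). The growth regulator myc ran from 2.66 to 6.54 in unexposed and from 1.44 to 4.37 in exposed livers, and the receptor signalling inhibitor spry2 from 0.845 to 1.68 and from 0.43 to 1.22.

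Of 31 listed ERK feedback and immediate early genes, 14 passed the filter on low levels and 17 did not. The 14 had a median log2 difference of -0.22, with 13 lower and 1 higher, where all tested genes had 50.3% lower. None was called, and 4 had an unadjusted p below 0.05. The list was chosen with earlier results of these data known and holds dusp6, spred1 and etv1, so its count is no separate evidence. With a filter at an FPKM of at least 5, 4 members were lower, with fewer tested. The immediate early genes themselves differed little beside their errors, with -0.21 (SE 0.35) for fos, -0.19 (SE 0.37) for jun, -0.04 (SE 0.58) for egr1 and -0.08 (SE 0.40) for dusp1. Without unexposed replicates 3 and 4, dusp6 stood at a log2 difference of -0.49, spred1 at -0.60 and etv1 at -0.71. These libraries were chosen for levels of other genes, given below, and were the lowest unexposed ones of etv1. The list as a whole had 9 lower members without unexposed replicate 1. The mean log2 level of its members, each centred on the gene's own mean, was -0.03 to 0.41 in unexposed livers. In exposed livers it ran from -0.44 in replicate 2 of the mixture to 0.51 in replicate 4 of triclosan.

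**Figure D3:**
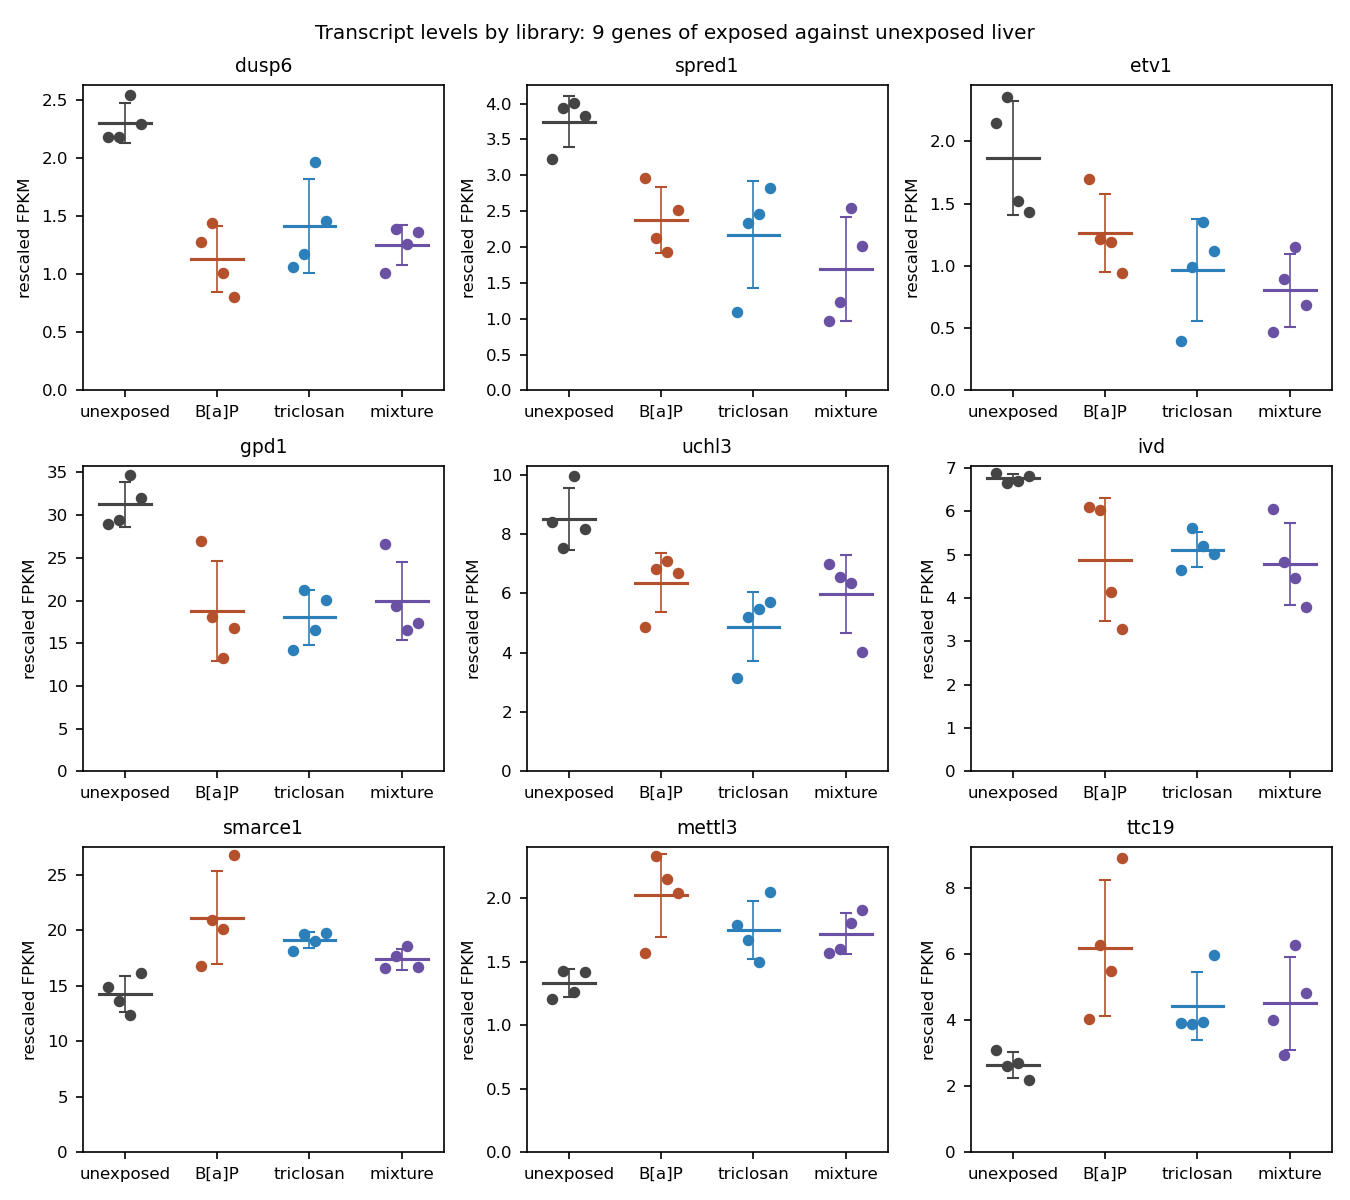
Rescaled FPKM (y axes, from 0) of 9 genes in each library of the 4 groups (x axes; B[a]P is benzo[a]pyrene). Points are libraries, horizontal lines group means and error bars SD (n = 4). The exposed and unexposed points do not overlap except for etv1 and ttc19, where 11 of 12 exposed libraries lie beyond the unexposed range.

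Several genes with lower levels encode enzymes of fuel and amino acid metabolism. Of those described next, ivd and mdh2 are not among the 24 genes but are leading members of the metabolic gene lists. The glycerol-3-phosphate dehydrogenase gpd1 (ENSXETG00000013352, scaffold GL172803.1, 1059728 to 1077770), which links glycolysis to triglyceride synthesis, stood at 29.0, 29.4, 34.7 and 32.0 in unexposed livers. Exposed livers ran from 13.2 through a median of 17.7 to 26.9, with no overlap. The combined log2 difference was -0.72 (SE 0.18, 95% interval -1.10 to -0.34, adjusted p = 0.631), and the 3 exposures were close to each other at -0.75, -0.78 and -0.64. The leucine-degrading enzyme ivd (ENSXETG00000016078) was nearly constant in unexposed livers at 6.88, 6.66, 6.70 and 6.82. It ran from 3.27 through 4.92 to 6.10 in exposed livers, also with no overlap (log2 difference -0.41, SE 0.14, adjusted p = 0.631).

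The gene prodh2 (ENSXETG00000002945), of the proline dehydrogenase family, stood at 15.95, 13.04, 14.3 and 16.8 in unexposed livers and at 2.97 to 17.97 in exposed livers. Its log2 difference was -1.26 for benzo[a]pyrene, -0.09 for triclosan and -0.72 for the mixture, and the triclosan libraries, at 10.55, 13.02, 17.97 and 15.38, spanned the unexposed range. The carnitine carrier slc25a20.2 (ENSXETG00000009331), which brings fatty acids into mitochondria, stood at 11.5, 12.8, 13.5 and 12.5 in unexposed livers, and 11 of 12 exposed libraries were below that range, at a median of 7.45. The aldehyde dehydrogenase aldh9a1 (ENSXETG00000004757), an enzyme of carnitine synthesis, stood at 209, 276, 140 and 256 in unexposed livers and at 45.7 to 184 in exposed ones (log2 difference -1.14, SE 0.33). The malate dehydrogenase mdh2 (ENSXETG00000008976) of the citrate cycle stood at 121, 185, 101 and 92.8 in unexposed livers and at a median of 61.4 in exposed livers (log2 difference -0.93, SE 0.29). The guanine nucleotide enzyme impdh2 (ENSXETG00000009343) stood at 45.0, 41.6, 35.1 and 45.5 in unexposed livers, and 10 of 12 exposed libraries were below 35.1. All these genes had an adjusted p of 0.631.

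Several lists of metabolic genes had lower members more often than the 50.3% over all genes, other lists did not, and no member was called. Of 42 tested genes of amino acid catabolism and the urea cycle, 35 were lower (83.3%, median log2 difference -0.31), and 5 of them had an unadjusted p below 0.05. Of 35 genes of glycolysis, glycogen and the citrate cycle, 28 were lower (80%, median -0.17). Of 32 genes of fatty acid oxidation, ketogenesis and the peroxisome, 25 were lower (78.1%, median -0.15). Of 68 nuclear genes of the respiratory chain, 57 were lower (83.8%, median -0.12), and 1 had an unadjusted p below 0.05. Mitochondrially encoded genes went the other way, with 9 of 10 tested members higher (90%, median 0.27). Their medians were 0.37 for benzo[a]pyrene, -0.26 for triclosan and 0.59 for the mixture. Without unexposed replicates 3 and 4, 8 of these 10 genes were lower (median -0.08). The lists near the background were gluconeogenesis and glucose output with 5 of 10 lower (median -0.01), purine and pyrimidine synthesis with 10 of 20 (median 0.04), lipoproteins with 9 of 17 (median -0.03) and cholesterol synthesis with 10 of 18 (median -0.04). Outside metabolism, 66 of 77 ribosomal protein genes were lower (85.7%, median -0.17). These majorities leaned in part on single unexposed libraries. Without unexposed replicate 1, 46 ribosomal protein genes were lower. Without unexposed replicate 2, 44 respiratory chain genes and 29 genes of amino acid catabolism and the urea cycle were lower. Members of a list vary together within a library, and all gene lists here were chosen with earlier results of these data known. Such counts therefore do not weigh each gene as separate evidence. Amino acid catabolism scored lowest among the unexposed in replicate 4, at -0.29, below several exposed libraries.

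Among transcripts of secreted proteins and hepatocyte regulators, ttr, cebpa and igfbp2 had their lowest group means with benzo[a]pyrene. The thyroid hormone and retinol carrier ttr (ENSXETG00000004725) stood at 200, 624, 342 and 344 in unexposed livers. It was 92.5 ± 52.9 with benzo[a]pyrene, 324 ± 53.1 with triclosan and 187 ± 69 with the mixture (mean ± SD, n = 4 each). Its log2 differences were -2.05, -0.12 and -0.97 (combined -1.05, SE 0.32, adjusted p = 0.631), so the combined value was near that of the mixture and lay between those of the single chemicals. The hepatocyte transcription factor cebpa (ENSXETG00000018291) stood at 43.2, 41.5, 56.9 and 46.8 in unexposed livers, and 11 of 12 exposed libraries were lower than these, at a median of 25.01. Its 3 differences were -1.44, -0.67 and -0.80. The growth factor binding protein igfbp2 (ENSXETG00000019875) was 22.0 ± 7.04 in unexposed livers, 6.55 ± 1.97 with benzo[a]pyrene, 19.6 ± 2.99 with triclosan and 12.6 ± 7.40 with the mixture. The haem synthesis enzyme alad (ENSXETG00000023474) ran from 42.7 to 74.1 in unexposed and from 16.8 to 60.5 in exposed livers.

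Of 31 hepatocyte markers, 25 were tested and 22 were lower (88%, median -0.28), 2 with an unadjusted p below 0.05. The median was -0.47 for benzo[a]pyrene, -0.07 for triclosan and -0.20 for the mixture. Hepatocyte transcription factors had 10 of 16 tested members lower, at medians of -0.37, -0.11 and -0.08 in the same order. Lipoproteins and plasma lipid genes stood at medians of -0.39, 0.06 and 0.23. Steroid and retinoid metabolism had 20 of 23 tested members lower (median -0.24), and NRF2 targets and antioxidants 21 of 27 (median -0.25). Complement, coagulation and acute phase genes had 32 of 42 lower, at medians of -0.57 for benzo[a]pyrene, 0.05 for triclosan and -0.15 for the mixture. The antioxidant enzyme prdx6 (ENSXETG00000000525) stood at 83.6, 90.2, 81.0 and 114 in unexposed livers, and 9 of 12 exposed libraries were below 81.0.

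Genes with higher levels in exposed livers were mostly of low abundance and of varied function. Among the lower genes, dusp6, spred1 and etv1 above were at similarly low levels, whereas gpd1, impdh2 and aldh9a1 were more abundant. Whether level and direction go together was not tested. The mitochondrial protein ttc19 (ENSXETG00000022441), an assembly factor of respiratory complex III in mammals, stood at 3.11, 2.61, 2.70 and 2.18 in unexposed livers. Exposed livers ran from 2.94 through a median of 4.43 to 8.92 (log2 difference 0.69, SE 0.18, adjusted p = 0.631). The lysosomal thioesterase ppt2 (ENSXETG00000027741) stood at 1.79, 1.48, 1.27 and 1.505, against 1.75 to 3.85 in exposed livers. In both genes 11 of 12 exposed libraries were above the highest unexposed one.

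The DPY30 subunit of histone H3 lysine methyltransferase complexes, dpy30 (ENSXETG00000008549), stood at 48.8, 40.5, 34.7 and 44.4 in unexposed livers and at 43.8 to 79.1 in exposed livers, with a median of 62.9. The arginine methyltransferase PRMT2 (ENSXETG00000031494) stood at 1.65, 2.09, 2.18 and 2.38 in unexposed livers and at a median of 2.95 in exposed livers. Of both genes, 11 exposed libraries were above the unexposed range. The centromere protein cenpu (ENSXETG00000031559) ran from 0.62 to 0.929 in unexposed and from 0.755 to 1.79 in exposed livers. With every unexposed level below 1, cenpu met the filter on low levels through exposed libraries only, which favoured a higher level in exposed livers. The pyrimidine nucleotidase nt5c3a (ENSXETG00000021122), abundant in red blood cells, was 2.96 ± 0.158 in unexposed livers. It was 9.63 ± 2.80 with benzo[a]pyrene, 3.18 ± 0.983 with triclosan and 5.16 ± 1.95 with the mixture. The gene c19orf47 had a log2 difference of 0.70 (SE 0.20). For all 8 higher genes the adjusted p was 0.631.

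Another set of genes was singled out after their values were seen, because all 12 exposed libraries exceeded all 4 unexposed ones. The chromatin remodelling subunit smarce1 (ENSXETG00000021355) stood at 14.8, 13.6, 12.4 and 16.1 in unexposed livers and ran from 16.6 through 18.8 to 26.8 in exposed livers (log2 difference 0.40, SE 0.13). The RNA adenosine methyltransferase mettl3 (ENSXETG00000017182) stood at 1.21, 1.43, 1.27 and 1.42 against 1.501 to 2.33 (log2 difference 0.28, SE 0.09). The others with a symbol were CD40, an immune co-receptor, at 0.588 to 0.925 against 0.937 to 5.15, and the lysosomal protein cln3, at 4.39 to 5.49 against 5.55 to 10.2. They also included the lipid acyltransferase agpat1, at 1.62 to 2.41 against 2.48 to 4.91, the DNA polymerase polm, at 0.672 to 0.855 against 0.857 to 2.06, and the centriolar protein pcm1, at 2.39 to 3.11 against 3.14 to 5.28. The nearest exposed and unexposed levels were close to each other for all of these genes, smarce1, mettl3 and agpat1 included. The separation also depended on the scaling. Genes without overlap in either direction numbered 14 here, 6 with values as deposited and 5 with upper-quartile scaling. A gene with no symbol, ENSXETG00000033436, had the second smallest p, at 7.27, 6.08, 4.96 and 5.38 in unexposed livers and 8.51 to 15.6 in exposed livers (log2 difference 0.72, adjusted p = 0.57). The remaining gene of this kind, ENSXETG00000032258, has no symbol either and stood at 0.638 to 0.85 against 0.865 to 2.08. CD40, polm and ENSXETG00000032258 were below 1 in every unexposed library, so they met the filter on low levels through exposed libraries only. For these genes the filter favoured such a division between the groups, which is no separate evidence. Below the unexposed range the set held dusp6, gpd1, spred1, ivd and the ubiquitin hydrolase uchl3 (ENSXETG00000004711), at 7.51 to 9.97 against 3.16 to 7.09.

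Chromatin modifiers had more higher than lower members. Of 86 listed genes 54 were tested, 39 of them higher (72.2%, where all genes had 49.7%), with a median log2 difference of 0.15. The medians were 0.24 for benzo[a]pyrene, 0.08 for triclosan and 0.12 for the mixture. An unadjusted p below 0.05 was reached by 6 higher and 1 lower member, and no member was called. This list too was chosen with earlier results of these data known. The histone demethylase KDM2A (ENSXETG00000031050) stood at 2.01, 1.76, 2.26 and 3.16 in unexposed livers, and 9 of 12 exposed libraries were higher, at a median of 3.75 over the 12. The CpG-binding protein cxxc1 (ENSXETG00000021938) stood at 4.14 ± 0.873 in unexposed livers, 6.64 ± 1.13 with benzo[a]pyrene, 8.31 ± 0.758 with triclosan and 5.54 ± 2.89 with the mixture.

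The lower member was the arginine methyltransferase prmt1 (ENSXETG00000002877), at 1.94, 2.88, 7.52 and 4.64 in unexposed livers and 1.32 to 2.97 in exposed livers. Only unexposed replicates 3 and 4 lay above all exposed libraries for prmt1, and without them the log2 difference of -0.73 was -0.20. DNA replication and cell division genes had 20 of 25 tested members higher (80%, median 0.12), with medians of 0.28 and 0.22 for the single chemicals and -0.10 for the mixture. Among these, the primase subunit prim1 stood at 1.34 to 2.79 in unexposed and 1.78 to 7.26 in exposed livers, and the clamp loader subunit rfc1 at 2.74 to 3.66 and 3.22 to 8.63.

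Secretory pathway genes had low levels in exposed livers relative to an unexposed group that was itself divided. Of 40 tested genes of translocation into the endoplasmic reticulum (ER), N-glycosylation and COP vesicles, 37 were lower (92.5%, median log2 difference -0.43), and 13 had an unadjusted p below 0.05. Of 20 tested ER chaperones and unfolded protein response genes, 17 were lower (85%, median -0.55). The ER translocon subunit ssr4 (ENSXETG00000000730) stood at 360, 248, 348 and 398 in unexposed livers and at 148 to 379 in exposed ones. The signal peptidase subunit sec11c stood at 31.7, 14.0, 37.2 and 38.5 in unexposed livers and at a median of 13.8 in exposed livers. The ER peptidyl-prolyl isomerase ppib (ENSXETG00000010651) stood at 430, 286, 444 and 456, against 147 to 362.

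The ER chaperone hspa5, the classical marker of the unfolded protein response, is named here after its values were seen. It stood at 3.65, 1.14, 133 and 46.0 in the 4 unexposed livers. The exposed livers ran from 0.849 through 2.90 to 39.3, the highest being replicate 1 of the mixture. The ER stress protein manf stood at 0.647, 0.249, 22.7 and 7.62 in unexposed livers, and the secretory cell transcription factor BHLHA15 at 1.38, 0.337, 3.65 and 10.5. BHLHA15 was listed at 0 in all 4 benzo[a]pyrene libraries and reached at most 1.27 in the other exposed ones. It met the filter on low levels only through unexposed replicates 1, 3 and 4 and replicate 1 of the mixture. In all 3 genes unexposed replicates 3 and 4 were the high libraries, and replicates 1 and 2 overlapped the exposed libraries or lay close to them.

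The list scores, which average the members' log2 levels around each gene's mean, showed the same division. For ER chaperones they were -0.08, -0.48, 1.28 and 0.95 in the unexposed livers and -0.87 to 0.94 in the exposed ones. With unexposed replicates 3 and 4 left out, a choice made after seeing the data, 4 of 19 ER chaperones were lower (median 0.16), as were 18 of 40 translocation and glycosylation genes (median 0.04). The majority of lower members in these lists thus rested on 2 of the 4 unexposed livers. Single genes differed in this respect: ppib went from -0.73 to -0.54, ssr4 from -0.60 to -0.44 and sec11c from -0.81 to -0.40, and in these 3 genes unexposed replicate 1 was high as well. The stress-induced gene gadd45a, at 4.47, 4.27 and 9.65 in unexposed replicates 1, 2 and 3 and higher still in replicate 4, had a log2 difference of -1.06 with all libraries and of -0.33 without these 2. Over the same omission the members lower were 37 of 42 for amino acid catabolism (median -0.42), 22 of 25 for hepatocyte markers (median -0.33) and 12 of 13 for ERK feedback (median -0.19). Chromatin modifiers had 42 of 52 higher (median 0.17). Cholesterol synthesis genes went from 10 of 18 lower (median -0.04) to 3 of 17 lower (median 0.47). These libraries were left out for their ER levels, so the omission is no test of the other lists. Amino acid catabolism scored 0.34, 0.50, 0.25 and -0.29 in the 4 unexposed livers, so the omission took out its 2 lowest. ERK feedback scored 0.41, -0.03, 0.38 and 0.01, with replicates 1 and 3 high.

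**Figure D4:**
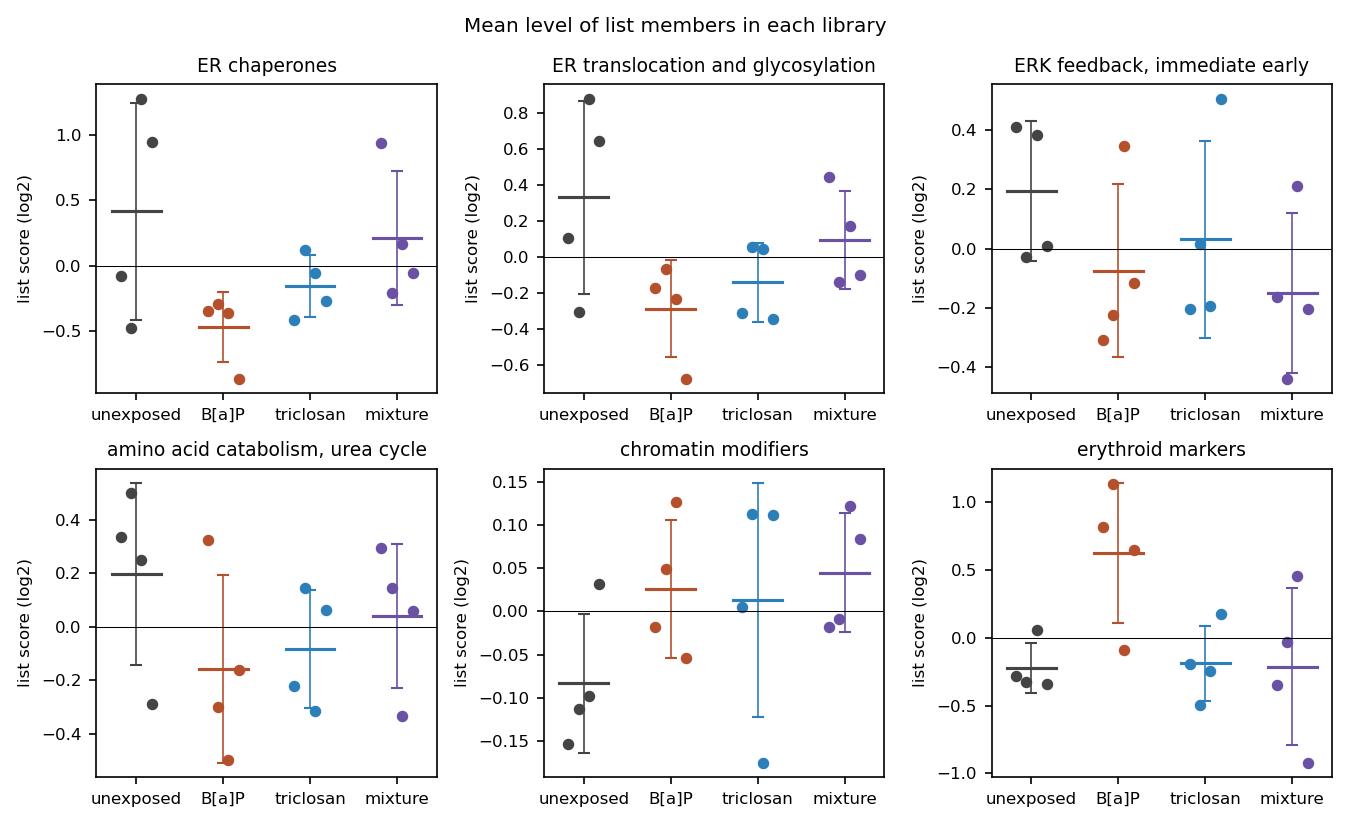
List scores per library (y axes, mean over the tested members of the log2 level, each centred on the gene's own mean) for 6 gene lists in the 4 groups (x axes; B[a]P is benzo[a]pyrene). Points are libraries, lines means and error bars SD (n = 4). In both ER panels 2 unexposed libraries stand high and 2 lie among the exposed ones, and erythroid markers are high in 3 of 4 benzo[a]pyrene libraries.

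Readouts of AhR overlapped between exposed and unexposed livers. The AhR target cyp1a1 (ENSXETG00000021140) stood at 45.3, 31.9, 47.2 and 36.0 in unexposed livers and ran from 13.2 through 31.5 to 72.8 in exposed livers. Its log2 difference was -0.33 (SE 0.32, 95% interval -1.01 to 0.35, adjusted p = 0.773), and -0.73 for benzo[a]pyrene alone. Of 10 AhR targets and pathway genes 5 were tested, with 3 lower and 2 higher (median -0.03). The receptor gene ahr, its repressor ahrr and the target cyp1b1 were below the filter, and cyp1b1 was listed at 0 in all libraries. The quinone reductase nqo1 had a log2 difference of 0.06 (SE 0.27).

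Phase I enzymes were split, with 15 of 32 higher and 17 lower (median -0.05). The leading member was CYP3A5 (ENSXETG00000033940), a monooxygenase of a family that in mammals is induced through the pregnane X receptor. It stood at 10.5, 8.10, 5.66 and 4.33 in unexposed livers, and at 6.71 through a median of 15.4 to 41.6 in exposed livers. In 10 of 12 exposed libraries CYP3A5 was above the highest unexposed level (log2 difference 1.24, SE 0.38, 95% interval 0.42 to 2.05, adjusted p = 0.631). The exposures were at 1.02, 1.22 and 1.46, and the combined difference was 0.85 without unexposed replicates 3 and 4. The separate gene cyp3a4 had a difference of 0.21 (SE 0.30), and nr1i2, the pregnane X receptor, was below the filter. The glucuronosyltransferase ugt1a6 (ENSXETG00000004890) stood at 9.22 to 12.6 in unexposed livers and 4.96 to 10.3 in exposed livers, below the unexposed range in 10 of 12.

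Of the endocrine transcripts, vtga2 varied widely between females of every group. The yolk precursor vtga2 (ENSXETG00000008637), which oestrogen induces in liver, stood at 936, 57.4, 297 and 2731 in unexposed livers and ran from 159 to 5495 in exposed livers. The log2 difference was 1.57 with an interval from -0.84 to 3.98 (SE 1.13, adjusted p = 0.702). The oestrogen receptor esr1 had a difference of -0.24 (SE 0.16). The growth factor igf1 was at -0.40 (SE 0.46), and its binding protein igfbp1 was at 0.32 (SE 0.78). The thyroid receptors thra and thrb, the lipid sensor ppara, the gluconeogenic pck1 and the bile acid enzyme cyp7a1 were below the filter.

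The glucose-6-phosphatase gene g6pc (ENSXETG00000013641), the last step of glucose output, stood at 13.9, 9.90, 3.48 and 1.47 in unexposed livers and at 3.99 through 14.9 to 35.3 in exposed livers. Its difference was 1.20 (SE 0.51, adjusted p = 0.631), and 0.23 without unexposed replicates 3 and 4, which were its 2 lowest libraries. A second gene of that name, G6PC (ENSXETG00000024588), was at 1.04 (SE 0.64). The difference of fasn, which encodes fatty acid synthase, was -0.23 (SE 0.36).

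**Figure D5:**
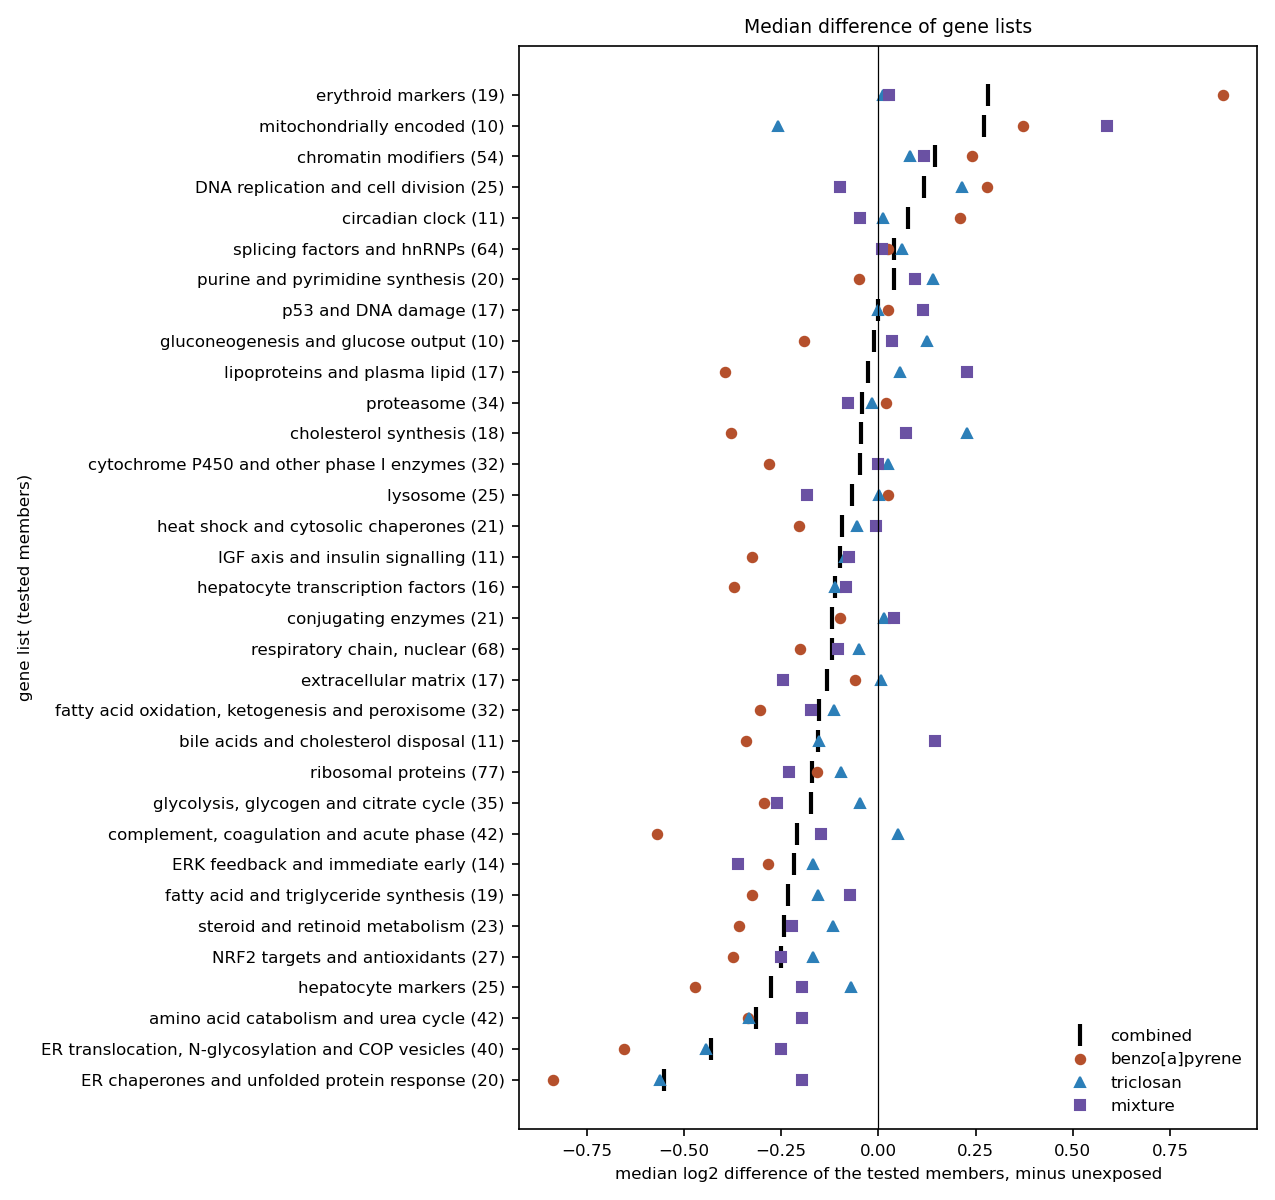
Median log2 difference against unexposed liver (x axis) over the tested members of the 33 gene lists with at least 10 tested members (y axis, number of members in parentheses). Black ticks give the combined difference and coloured points each exposure. The 2 ER lists lie lowest, at -0.55 and -0.43, and erythroid markers lie highest, at 0.28, with benzo[a]pyrene at 0.89 and the other exposures near 0.

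Differences of at least 0.5 in all 3 exposures and of 1 sign were found in 71 genes that were higher (1.03%) and 88 that were lower (1.27%). They are a description with no test of their own, and the 3 differences share the unexposed libraries. Among the members with the largest differences were small noncoding RNAs listed at 0 in many libraries, such as Vault, SNORA70 and SNORA32. Other members had an unadjusted limma p above 0.05, such as vtga2 (0.184) and a U4 RNA gene (0.372). Besides gpd1, aldh9a1, ttc19, prmt1, BHLHA15, mdh2, cebpa, ppib, CYP3A5, CD40 and gadd45a, this set held XB-GENE-5764740 (ENSXETG00000008798), which has no descriptive symbol. It stood at 18.2, 41.2, 22.8 and 19.8 in unexposed livers, and 11 of 12 exposed libraries were below 18.2. ER chaperones had 4 of 20 tested members in the set and ER translocation 5 of 40, against 2.3% over all genes. The set includes hspa5 and manf, whose high unexposed libraries were replicates 3 and 4. As given above, the majority of lower members in both ER lists rested on these libraries.

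Small noncoding RNAs, which poly(A) selection retains poorly, were among the extremes. The Vault RNA gene (ENSXETG00000029740) stood at 37.1, 39.0 and 30.5 in 3 unexposed libraries and was listed at 0 in replicate 3. It was listed at 0 in 11 exposed libraries and stood at 24.6 in replicate 3 of benzo[a]pyrene. The small nucleolar RNA SNORA16 (ENSXETG00000029761) was listed at 0 in unexposed replicate 1, stood at 5.06, 3.31 and 3.88 in the others, and at 3.68 in 1 exposed library. A U1 spliceosomal RNA gene (ENSXETG00000028212) was listed at 0 in all 4 unexposed livers and stood at 4.32 to 14.6 in 8 of 12 exposed livers. Their log2 differences were -3.50, -1.56 and 2.03, and with levels listed at 0 such values depend on the pseudocount. The U1 gene met the filter through exposed libraries only, and Vault and SNORA16 through 3 unexposed libraries and 1 exposed library each. The filter thus favoured such a division between the groups, which is no separate evidence. Without unexposed replicates 3 and 4, the single called gene was also a small noncoding RNA, SNORA63 (log2 difference 3.91, limma adjusted p = 0.00723). It was listed at 0 in unexposed replicates 1 and 2.

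Differences among the 3 exposed groups were tested directly. A moderated F test among them called 6 genes (0.0867%), and in each of them the benzo[a]pyrene group stood apart from the other exposed groups. The histone demethylase kdm6b stood at 0.675, 0.614, 1.01 and 0.719 in unexposed livers and at 3.47, 4.22, 1.69 and 3.54 with benzo[a]pyrene, with differences of 1.23, 0.05 and 0.01 (adjusted p = 0.0183). Its Polycomb-related counterpart jarid2 was 16.9 ± 3.43 in unexposed livers, 4.33 ± 6.85 with benzo[a]pyrene, 40.2 ± 13.1 with triclosan and 35.8 ± 5.48 with the mixture (adjusted p = 0.0143). The combined difference of jarid2 was -0.09, an average of values of opposite sign. The other 4 genes, named here after their values were seen, were the transcription factor nfix, XB-GENE-5857146, the prostaglandin-degrading enzyme hpgd and msl1, a subunit of a histone acetyltransferase complex. These counts depended on single libraries. Without benzo[a]pyrene replicate 3 the F test called 30 genes, and 46 instead of 2 passed for benzo[a]pyrene against unexposed. The F test called 0 without benzo[a]pyrene replicate 1, benzo[a]pyrene had 0 without unexposed replicate 1, and both counts were 0 with a replicate block.

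Markers of other cell types are given beside these results, and their part in them was not tested. Erythroid markers had 17 of 19 tested members higher (89.5%, median 0.28), with medians of 0.89 for benzo[a]pyrene, 0.01 for triclosan and 0.03 for the mixture. Their summed level was 429 to 510 in unexposed, 675 to 1248 in benzo[a]pyrene, 353 to 732 in triclosan and 324 to 868 in mixture livers. Without the benzo[a]pyrene group 9 of the 19 were higher. The globin hbg2 stood at 2561 to 4813 in unexposed and 3101 to 15170 in exposed livers. Bile duct markers had 7 of 9 lower (median -0.50), with summed levels of 678 to 1705 in unexposed, 415 to 965 in benzo[a]pyrene, 747 to 1316 in triclosan and 516 to 700 in mixture livers. All 4 tested macrophage markers were lower (median -0.31), 5 of 6 granulocyte markers were lower (median -0.12) and 3 of 4 lymphocyte markers were higher (median 0.30). The exposures were unlike in these lists. For benzo[a]pyrene, triclosan and the mixture, the macrophage medians were -0.02, -0.13 and -0.85. In the same order they were -0.63, 0.45 and -0.26 for granulocyte and 0.62, 0.33 and -0.19 for lymphocyte markers. Endothelial markers had 4 of 5 lower (median -0.07). Of 18 ovary markers 17 were below the filter, and no pigment cell marker passed it. The genes gdf9, tyr and pnlip, defining genes of oocytes, pigment cells and pancreas, were listed at 0 in all 16 libraries. Other pancreas transcripts were present: of 16 exocrine pancreas markers 2 were tested, and both were higher (median 0.46). The summed level of that list was 49.6 to 82.2 in unexposed and 43.7 to 157 in benzo[a]pyrene livers. It was 45.9 to 172 in triclosan and 64.0 to 327 in mixture livers.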

How the data were processed

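RNA was measured in 16 liver libraries, grouped by the treatment in the labels. Per the file headers, the authors deposited gene-level FPKM with confidence intervals for 19921 Ensembl genes. The submitters' processing notes name Cufflinks 0.0.7, TopHat2 0.6, TopHat, Bowtie 0.12.7 and Trimmomatic 0.32.1. Loci are on scaffolds of a genome build not given in these sources. Read counts were not used here, so depth was read from the interval widths. The intervals give no error between animals.

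From these values, 54 estimates of 10 genes without an OK status, among them alb in all libraries, were set to missing. Libraries were rescaled by median ratios over 3959 genes. Genes with a rescaled FPKM of at least 1 in at least 4 libraries were tested as log2(FPKM + 1), a scale that understates changes of low genes. limma 3.58.1 in R 4.3.3 fitted 1 mean per group (lmFit, contrasts.fit, eBayes with trend and robust), with 12 residual degrees of freedom, two-sided, with Benjamini-Hochberg adjustment over all tested genes. The fit was tested on simulated data.

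Named genes were the 24 with a symbol and the smallest p, since none was called, up to 3 per list, and genes chosen for the chemicals. The members and the 48 gene lists were chosen with earlier results of these data known. Alternatives changed the pseudocount, scaling, filter, fit, replicate block and libraries.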

Additional observations from a re-analysis of the deposited data

Results flagged for a closer look

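Differences between the exposed groups passed the F test among them in 6 genes that the text names. The adjusted p (limma) was 0.0119 for nfix and for XB-GENE-5857146, 0.0143 for jarid2, 0.0183 for kdm6b, 0.0268 for hpgd and 0.0279 for msl1.

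Among 82 named genes, 27 of 322 groups of 4 libraries (8.39%) held a library whose gap to the nearest other exceeded Dixon's critical share of the group's range. For normally distributed values, chance alone gives about 1 in 20 groups. The FPKM were taken here without logarithms, so the 8.39% cannot be weighed against that rate. In unexposed livers, replicate 4 stood apart in cenpk (gap 0.988 of the range) and cenpu (0.837), replicate 2 in esr1 (0.857) and ppib (0.848), and replicate 1 in hbd (0.922). With benzo[a]pyrene, replicate 4 stood apart in G6PC (0.902), cxxc1 (0.868) and prim1 (0.838), replicate 3 in Vault (1) and jarid2 (0.936), replicate 2 in hpgd (0.915), nfix (0.868) and slc25a20.2 (0.962), and replicate 1 in fasn (0.915). With triclosan, replicate 2 stood apart in SNORA16 (1), U1 (1), manf (0.95) and siglec1 (0.879), replicate 1 in hbg2 (0.839) and igf1 (0.904), replicate 3 in c19orf47 (0.933) and replicate 4 in ttc19 (0.964). With the mixture, replicate 4 stood apart in nfix (0.849) and nqo1 (0.918), replicate 3 in CD40 (0.893), replicate 2 in mdh2 (0.943) and replicate 1 in hspa5 (0.886).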

How the results depend on the processing

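Over 31 settings, no gene passed the combined test except SNORA63 without unexposed replicates 3 and 4 together (1 called higher, smallest adjusted p 0.00723), a setting chosen after seeing the data. The 24 leading genes never changed sign in 719 values and were never called, and 16 of 155 named genes changed sign at least once. The 24 were picked by the smallest p of this same difference, and the settings reuse the same libraries. Their constant sign is therefore no separate evidence. Genes below the filter gave no value in a setting: BHLHA15 and SNORA16 had values in 25 settings and Vault in 26. Leaving out unexposed replicates 3 and 4 also gave 278 genes at an unadjusted p below 0.05, 134 without overlap, 268 of shared size, 2 by the F test, 0 for benzo[a]pyrene, 1 for the mixture, and 18 lower ER translocation genes and 4 lower ER chaperones.

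A pseudocount of 0.1 gave 303 genes of shared size and 0 called for benzo[a]pyrene. Values as deposited, with no rescaling, gave 315 genes at an unadjusted p below 0.05, 6 without overlap, 3 by the F test and 0 for benzo[a]pyrene, and their median log2 difference was -0.0765. Upper-quartile scaling gave 5 without overlap and 0 for benzo[a]pyrene. No filter gave 10 by the F test and 63 higher chromatin modifiers, with more genes tested. An FPKM of at least 5 gave 260 genes at an unadjusted p below 0.05, 6 without overlap, 3 by the F test, 0 for benzo[a]pyrene, 11 lower ER chaperones, 4 lower ERK feedback genes and 11 higher chromatin modifiers, with fewer genes tested. List counts under either filter change with the number of members tested, so they do not show whether a share held. Without trend and robust options benzo[a]pyrene had 0, and library weights gave it 6, with 12 by the F test. Leaving out the benzo[a]pyrene, triclosan or mixture group gave 41, 64 or 43 genes without overlap and 332, 352 or 277 of shared size, by construction fewer samples, and 9 higher erythroid markers without benzo[a]pyrene. Leaving out replicates 4 of benzo[a]pyrene and mixture gave 0 by the F test and 0 for benzo[a]pyrene.

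Leaving out 1 library gave 290 (without unexposed replicate 3) to 710 (without triclosan replicate 3) genes at an unadjusted p below 0.05, smallest adjusted p of 0.0584 to 0.774, 13 to 63 without overlap (63 without unexposed replicate 2), 125 to 284 of shared size, 0 to 30 by the F test and 0 to 46 for benzo[a]pyrene (30 and 46 without its replicate 3).

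Same-numbered libraries of different groups did not deviate together (median correlation -0.047, 6 of 24 pairs over 0.1), and 4 of 16 libraries correlated best with their own number, so numbers were not taken as pairs. With a replicate block, the combined test called 0, the F test 0 and benzo[a]pyrene 0. Depth limits genes near an FPKM of 1, where few fragments stand behind a value. The globin share difference was -2.51 percentage points when genes with failed estimates in some libraries were kept, a setting chosen after seeing the data, and 0.362 to 0.648 without 1 library. In the former setting a failed estimate adds nothing to its library's sum, so the value depends on which libraries lack one. The ribosomal RNA difference was 0.205 without replicate 4 of the mixture. The causes of these dependences were not tested.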
